A study of Rattus norvegicus with 12 samples.

Results

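Fatty acid oxidation breaks acyl chains down in mitochondria and peroxisomes, and many of its genes are targets of the nuclear receptor PPARα. A list of 33 genes of this pathway was followed by gene name through a table of read counts from an insulin-secreting rat cell line. It holds the receptors Ppara and Ppard and their coactivator Ppargc1a, the carnitine shuttle, the mitochondrial and peroxisomal oxidation enzymes, the electron transfer flavoproteins, a few other PPAR targets and a group of peroxisome assembly genes. Of the 33 names, 32 had a row among the 28727 named rows of the table, and Acaa1a was not analysed here. Counts were high enough for a test in 29 of them, out of 14669 genes tested in all, and the remaining 3 (Pdk4, Angptl4 and Acot1) are described by their counts.

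Cells of an INS-1-derived line (insulin-secreting rat insulinoma, called INS-1 below) were infected with an adenovirus that carried GFP, as the control, or ChREBPβ. ChREBPβ is the shorter and constitutively active isoform of the carbohydrate response element binding protein. Glucose was held at 2 mM or at 11 mM, over 48 h by the study's account of these data. Its general methods for adenovirus give a longer time in glucose. The 4 groups are GFP at 2 mM, GFP at 11 mM, ChREBPβ at 2 mM and ChREBPβ at 11 mM. Each group has 3 libraries, named a, b and c, of 25754488 to 60531215 counts. The model has limits: all 12 libraries come from a single insulinoma line, the ChREBPβ virus carries a mouse cDNA tagged with mCherry, and the RNA was amplified before sequencing. The study's legend to its heat maps of these data describes averages over 3 independent experiments. The labels do not tie single libraries to those experiments, and the p-values measure the spread between the libraries of a group.

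Long-chain fatty acids enter mitochondria as acylcarnitines. Cpt1a makes them at the outer membrane, the carrier Slc25a20 moves them across the inner membrane, and Cpt2 turns them back into acyl-CoA in the matrix. Each round of oxidation then takes a dehydrogenation, a hydration, a further dehydrogenation and a thiolytic split. Malonyl-CoA, which cells make from glucose carbon through acetyl-CoA carboxylase, blocks Cpt1a, and in β-cells this switch couples glucose supply to the use of fatty acids.

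Promoters were read for what these genes share beyond their function. RefSeq gives a promoter of 300 bases (250 before the start site and 50 after it, build GRCr8) for 29 of the 33 genes, with no entry for Ppard, Acadl, Decr1 and Acaa2. The E-box CACGTG, the core of sites bound by ChREBP, was in 0 of the 29 promoters and in 6.42% of all 33465, reading both strands. The full carbohydrate response element consensus was in 0 of 29 and in 0.0747% of all. PPAR receptors bind a direct repeat of AGGTCA with 1 base between the copies. That repeat had no exact match in the 29 promoters (0.0538% of all had one), and with at most 2 mismatches it was in 4 of 29, against 3.77% of all. Those promoters were of Acadvl, Etfa, Slc25a20 and Crat. The element TCAAGGTCA of estrogen-related receptors was in 0 of 29 and in 0.433% of all. A match is a description of letters only. The promoters of Acadvl (minus strand, chr10:55236656-55236955), Etfa (minus strand, chr8:64787916-64788215) and Slc25a20 (plus strand, chr8:118243323-118243622) are shown because they carry the repeat, which stands in capitals and reads on the opposite strand in Etfa.
Acadvl: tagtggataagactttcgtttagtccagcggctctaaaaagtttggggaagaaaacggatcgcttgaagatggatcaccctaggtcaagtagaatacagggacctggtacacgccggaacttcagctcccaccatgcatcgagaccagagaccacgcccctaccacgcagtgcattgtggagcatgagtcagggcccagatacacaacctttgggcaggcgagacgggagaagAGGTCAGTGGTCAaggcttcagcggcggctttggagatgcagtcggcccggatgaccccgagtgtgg
Etfa: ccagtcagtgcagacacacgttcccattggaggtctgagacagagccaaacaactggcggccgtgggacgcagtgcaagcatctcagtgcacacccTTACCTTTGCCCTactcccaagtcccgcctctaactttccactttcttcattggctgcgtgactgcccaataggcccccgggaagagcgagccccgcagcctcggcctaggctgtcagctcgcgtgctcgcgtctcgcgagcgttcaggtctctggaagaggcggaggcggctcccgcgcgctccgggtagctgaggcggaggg
Slc25a20: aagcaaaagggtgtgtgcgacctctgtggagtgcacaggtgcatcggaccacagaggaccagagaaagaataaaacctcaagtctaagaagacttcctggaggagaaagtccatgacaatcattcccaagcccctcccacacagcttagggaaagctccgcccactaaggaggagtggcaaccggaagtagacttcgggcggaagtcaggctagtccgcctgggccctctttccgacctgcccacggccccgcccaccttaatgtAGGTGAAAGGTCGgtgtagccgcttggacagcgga

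Of the genes with the largest changes, Ppargc1a and Hadhb are shown for what lies in their promoters. Ppargc1a (plus strand, chr14:63634058-63634357) carries a cyclic AMP response element, TGACGTCA, in capitals, from base -181 to -174 before its start. This motif was searched after the sequence had been seen, and it was in 2 of 29 promoters (Acadm is the other) and in 1.83% of all. Hadhb (minus strand, chr6:31907451-31907750) and Hadha lie head to head on opposite strands, with 301 bases between their starts. Capitals in the Hadhb promoter mark the 200 bases that it shares with the promoter of Hadha.
Ppargc1a: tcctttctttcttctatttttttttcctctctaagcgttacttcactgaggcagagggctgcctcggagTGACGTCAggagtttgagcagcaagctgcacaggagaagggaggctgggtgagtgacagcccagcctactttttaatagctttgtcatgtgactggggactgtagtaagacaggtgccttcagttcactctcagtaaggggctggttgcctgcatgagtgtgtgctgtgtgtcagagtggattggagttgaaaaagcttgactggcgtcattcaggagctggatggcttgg
Hadhb: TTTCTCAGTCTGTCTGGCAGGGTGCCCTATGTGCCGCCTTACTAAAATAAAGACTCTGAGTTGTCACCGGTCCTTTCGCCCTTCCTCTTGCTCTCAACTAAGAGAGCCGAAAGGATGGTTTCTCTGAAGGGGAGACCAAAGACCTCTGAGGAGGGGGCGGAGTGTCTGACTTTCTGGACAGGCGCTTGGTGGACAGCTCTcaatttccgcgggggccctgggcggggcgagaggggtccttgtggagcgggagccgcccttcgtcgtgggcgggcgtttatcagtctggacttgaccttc

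Mlxipl, the rat gene for ChREBP, averaged 256 CPM (the read count relative to the library total after TMM scaling) in the 2 mM and 207 CPM in the 11 mM libraries with GFP. With ChREBPβ its means were 205 CPM at 2 mM and 188 CPM at 11 mM. The rat row was thus not higher with the virus, with a called decrease at 2 mM (-0.33 ± 0.0517, edgeR adjusted p = 2.03e-05), and transcripts of the mouse cDNA were not analysed here. Txnip, a target of ChREBP, averaged 26.3 CPM (GFP) against 457 CPM (ChREBPβ) at 2 mM, and 351 against 666 CPM at 11 mM. Pklr, the pyruvate kinase gene on which ChREBP was first described, averaged 129.5 and 417 CPM at 2 mM, and 211 and 446 CPM at 11 mM. Changes below are log2 fold changes ± standard error (SE), and a gene was called where the edgeR adjusted p was under 0.05 and the change reached 1.2-fold. Both Txnip (4.12 ± 0.0545 at 2 mM, edgeR adjusted p = 2.12e-21) and Pklr (1.69 ± 0.0478, edgeR adjusted p = 1.52e-16) were called higher with the virus.

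The cells were checked against markers. All 9 β-cell markers had a row, and their summed level was 14500, 15400 and 16400 CPM in the 2 mM and 12100, 11100 and 12000 CPM in the 11 mM libraries with GFP. With ChREBPβ it was 6110, 6260 and 6210 CPM at 2 mM and 5190, 5570 and 5320 CPM at 11 mM, below the GFP libraries in every case. Ins1 was the most abundant marker in this sum. Of the 8 that were tested, 7 were called lower and 1 (Slc2a2) higher with ChREBPβ at 2 mM, and 6 lower and 1 higher at 11 mM. Beside these and the virus counts of the other markers below stand the shares of all genes tested. With ChREBPβ 21.0% were higher and 23.2% lower at 2 mM, and 14.3% and 19.1% at 11 mM. Among 6 markers of other islet cells Gcg was the most abundant. The 6 summed to 1590, 1670 and 1620 CPM in the 2 mM and 1720, 1610 and 1650 CPM in the 11 mM libraries with GFP, against 433, 442 and 431 CPM at 2 mM and 453, 483 and 503 CPM at 11 mM with ChREBPβ. Without Gcg the sums were 1.19 to 2.68 CPM with GFP and 1.32 to 2.43 CPM with ChREBPβ, which overlapped, so the lower sum was that of Gcg. Of the 3 tested, 1 (Gcg) was called lower at each glucose level. Of 8 acinar and ductal markers 7 had a row, Prss1 and Cftr were at 0 counts, and the most abundant was Ctrb1 over the 12 libraries and with GFP, and Sox9 with ChREBPβ. They summed to 6.10, 4.66 and 6.12 CPM at 2 mM and 7.14, 6.08 and 5.96 CPM at 11 mM with GFP, and to 13.2, 12.6 and 13.3 CPM, then 15.3, 14.5 and 16.5 CPM with ChREBPβ, above GFP in every case. Without Ctrb1 the sums were 0.588 to 1.23 CPM with GFP and 8.13 to 9.76 CPM with ChREBPβ. Of the 2 tested, 1 (Sox9) was called higher at each glucose level (3.26 and 3.04). Stromal, endothelial and immune markers (9 of 10 with a row, Lum and Ptprc at 0 counts, Kdr the most abundant) summed to 1.51, 1.60 and 1.70 CPM, then 1.90, 1.87 and 2.52 CPM with GFP, and to 3.37, 1.66 and 2.02 CPM, then 2.68, 2.14 and 2.43 CPM with ChREBPβ. These sums overlapped, whereas without Kdr they ran from 0.385 to 0.719 CPM with GFP and from 1.09 to 2.61 CPM with ChREBPβ. Of the 3 tested, 2 were called higher and 1 lower at 2 mM, and 1 higher and 1 lower at 11 mM. Hepatocyte markers summed to 2.39 to 6.28 CPM, with overlap between the viruses, and of the 2 tested, 1 (Tat) was called lower at 2 mM and 0 at 11 mM. Between 2 and 11 mM, 7 of the 8 β-cell and both tested hepatocyte markers were called lower in GFP cells, where 10.0% of all genes were. In ChREBPβ cells 3 β-cell markers and 1 hepatocyte marker were lower, against 2.88% of all genes. There 1 acinar and ductal marker was higher, against 0.988% of all. The part of these marker changes in the results was not tested. In bulk RNA, fewer cells of a kind and less RNA per cell cannot be told apart, and TMM values are relative to the other genes of a library.

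With ChREBPβ at 2 mM, 6 of the 29 oxidation genes were called higher and 8 lower. Over all genes tested 21.0% were higher and 23.2% lower, so the count of oxidation genes (20.7% and 27.6%) was near the background. Their median log2 fold change was -0.12, and that of all genes was -0.017. At 11 mM, 6 were called higher and 6 lower, against 14.3% and 19.1% of all genes, with a median of 0.028 for the oxidation genes and -0.017 for all. The comparisons at 2 and 11 mM use separate libraries, and each shares its libraries with the glucose comparisons. Genes lower at both glucose levels were Hadh, Eci1, Decr1, Hsd17b4 and Etfb (5 of 29, 17.2%, against 16.2% of all genes). Genes higher at both were Ppard, Ppargc1a and Hadhb (3 of 29, 10.3%, against 12% of all). Of the 29, 21 were called in at least 1 comparison of 2 groups (72.4%, against 52.2% of all), and the 8 that were not are Ppara, Acadvl, Acadm, Acads, Ehhadh, Ucp2, Crat and Pex11a. In the plot of virus effects by role, Ppard, Ppargc1a and Hadhb lie to the right at both glucose levels, and Hadh and Eci1 to the left. The median at 11 mM was 0.00966 without GFP 11 mM b and 0.00805 without ChREBPβ 11 mM b (leave-one-out values 0.00805 to 0.0367). Scaled by library totals alone, 3 of the 29 were called higher and 11 lower at 2 mM, against 2196 and 4421 of all genes. At 11 mM 3 were higher and 7 lower, against 1532 and 3698 of all. The medians of the 29 were -0.215 and -0.0567, and those of all genes -0.116 and -0.101. With RLE factors 7 of the 29 were higher and 4 lower at 11 mM, against 2289 and 2625 of all. The medians at 11 mM were then 0.0468 for the 29 and 0.00204 for all, and with DESeq2 0.0465 and 0.00158.

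**Figure D1:**
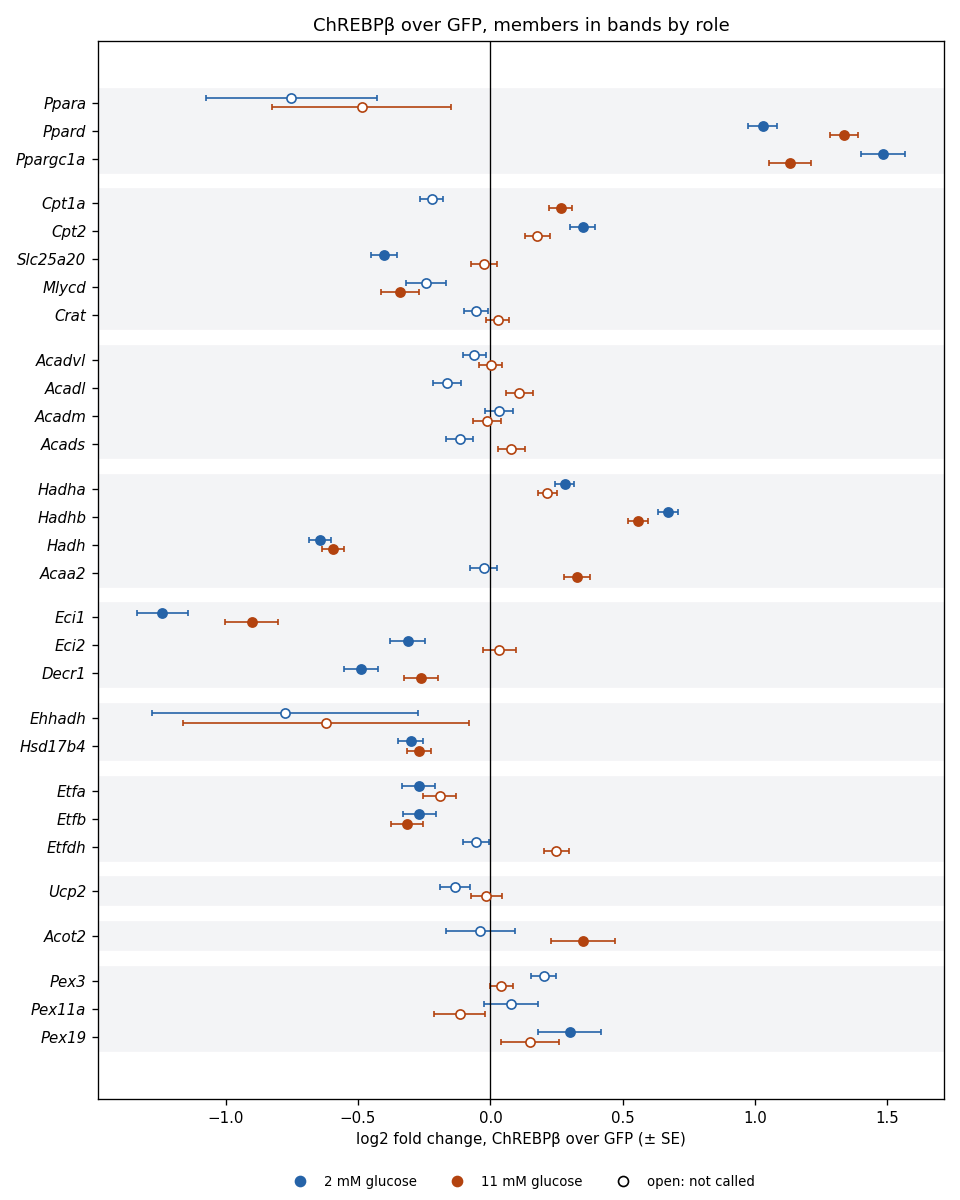
Log2 fold change of ChREBPβ over GFP (x axis, ± SE) for the 29 tested genes (y axis, in bands by role) at 2 mM (blue) and 11 mM glucose (red), with filled points for called genes. Ppargc1a (1.48 at 2 mM) lies furthest to the right and Eci1 (-1.24 at 2 mM) furthest to the left.

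Among the regulators, Ppard codes for PPARδ, a receptor that is found in most tissues and is the main PPAR of β-cells. Ppard stood at 27.6, 26.4 and 29.3 CPM in the 2 mM and 21.9, 22.6 and 23.9 CPM in the 11 mM libraries with GFP. The ChREBPβ libraries gave 57.6, 53.6 and 58.5 CPM at 2 mM and 57.8, 57.6 and 57.4 CPM at 11 mM. The 6 ChREBPβ libraries were all well above the 6 GFP libraries, with no overlap, and at 11 mM they nearly coincided. At 2 mM Ppard changed by 1.03 ± 0.0545 (edgeR adjusted p = 3.22e-12), against 1.33 ± 0.0535 (edgeR adjusted p = 5.86e-14) at 11 mM. In GFP cells Ppard fell with glucose (-0.28 ± 0.0571, edgeR adjusted p = 0.000725), a call that was lost without GFP 2 mM c or GFP 11 mM a (leave-one-out values -0.317 to -0.239). With ChREBPβ the glucose effect was 0.026 ± 0.0505 and was not called.

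Ppargc1a codes for PGC-1α, a coactivator of PPAR and estrogen-related receptors that raises mitochondrial oxidation in muscle and brown fat. Its level stood at 5.99, 5.16 and 5.48 CPM in the 2 mM and 5.68, 6.08 and 5.75 CPM in the 11 mM libraries with GFP. Under ChREBPβ the values were 16.1, 14.6 and 15.8 CPM at 2 mM and 13.0, 12.7 and 12.6 CPM at 11 mM. Every ChREBPβ library was more than 2-fold above every GFP library. At 2 mM Ppargc1a changed by 1.48 ± 0.0843 (edgeR adjusted p = 9.61e-12), against 1.13 ± 0.0796 (edgeR adjusted p = 3.76e-10) at 11 mM. Within the ChREBPβ cells it fell at 11 mM (-0.27 ± 0.0726, edgeR adjusted p = 0.0254), and this was lost without ChREBPβ 2 mM a or c or ChREBPβ 11 mM b or c (leave-one-out values -0.318 to -0.244). Ppara, the receptor after which the targets are named, was close to the limit of the counts. The GFP libraries gave 0.588, 0.729 and 1.03 CPM at 2 mM and 0.332, 0.428 and 0.571 CPM at 11 mM, and those with ChREBPβ 0.466, 0.499 and 0.430 CPM at 2 mM, then 0.273, 0.316 and 0.366 CPM at 11 mM. The 3 GFP libraries at 2 mM were above the other 9, and the other groups overlapped in part. None of the main edgeR tests of Ppara was called, and at 2 mM the change was -0.75 ± 0.322 (edgeR adjusted p = 0.0517), which was called lower with library totals (-0.85) and without GFP 2 mM a (-0.906). The glucose effect on Ppara in GFP cells was -0.81 ± 0.325 (edgeR adjusted p = 0.0604). It was called lower with library totals (-0.844) and without GFP 2 mM a (-0.967) or GFP 11 mM c (-1.05).

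**Figure D2:**
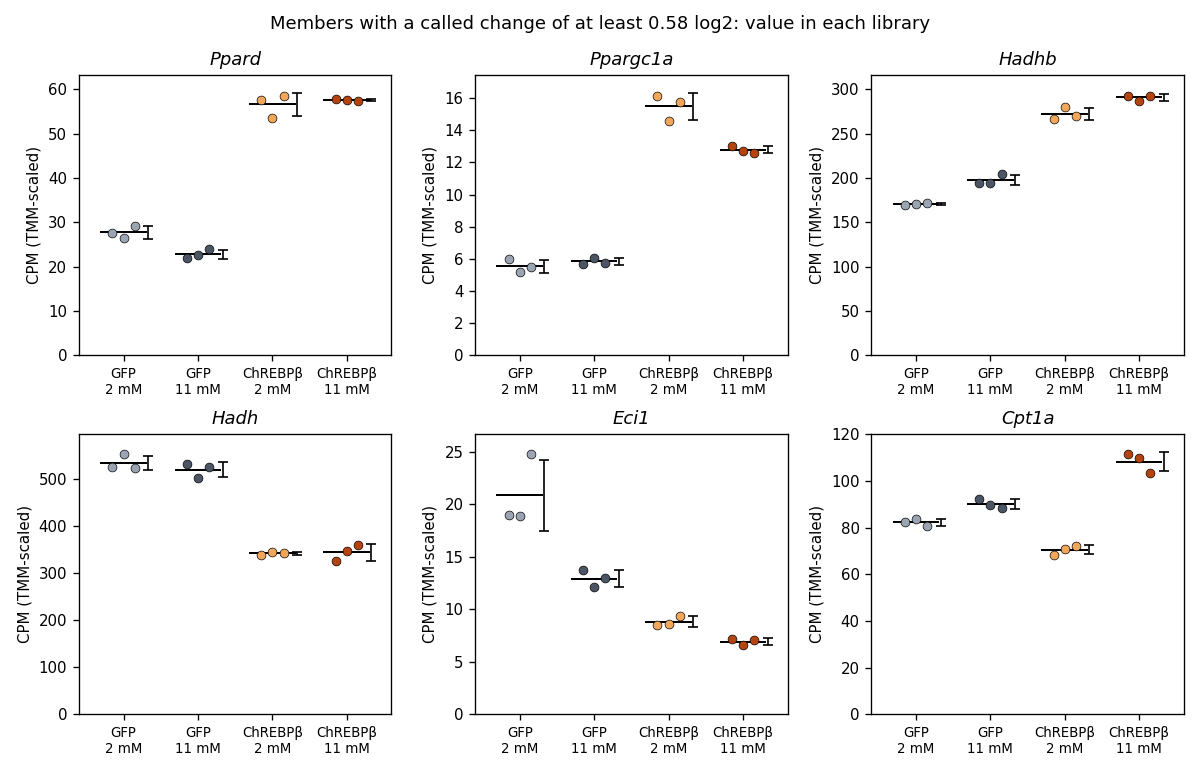
Level (y axis, TMM-scaled CPM from 0) of 6 genes in each of the 12 libraries by group (x axis), with the mean as a line and the standard deviation of 3 libraries as a bar. Ppard, Ppargc1a and Hadhb are higher and Hadh and Eci1 lower in all ChREBPβ libraries, whereas Cpt1a (means 82.3, 90.1, 70.5 and 108 CPM) is lowest with ChREBPβ at 2 mM and highest with it at 11 mM.

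In the carnitine shuttle, the virus effect depended on glucose for Cpt1a and Slc25a20. Cpt1a, the step that malonyl-CoA inhibits, stood at 82.4, 83.7 and 80.9 CPM in the 2 mM and 92.4, 89.5 and 88.5 CPM in the 11 mM libraries with GFP. With ChREBPβ it stood at 68.4, 71.0 and 72.1 CPM at 2 mM and 111, 110.0 and 104 CPM at 11 mM. None of the 4 groups overlapped: the ChREBPβ libraries were the lowest of all at 2 mM and the highest of all at 11 mM. At 2 mM the change of -0.22 ± 0.0439 had edgeR adjusted p = 0.000222 and was smaller than 1.2-fold, and with library totals it was called lower (-0.322). At 11 mM Cpt1a rose (0.27 ± 0.0426, edgeR adjusted p = 3.29e-05), by little more than the minimum. That call was lost with library totals (0.182) and without GFP 11 mM b or c or ChREBPβ 11 mM a or b (leave-one-out values 0.245 to 0.297). Between 2 and 11 mM, Cpt1a rose in ChREBPβ cells (0.62 ± 0.043, edgeR adjusted p = 3.9e-08) and its change in GFP cells was 0.13 ± 0.0436, which was not called. The difference of the ChREBPβ effect between 11 and 2 mM was 0.49 ± 0.0611 (edgeR adjusted p = 2.85e-05).

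The carrier Slc25a20, whose promoter holds a repeat with 2 mismatches, stood at 63.2, 66.4 and 67.8 CPM in the 2 mM and 61.5, 57.2 and 57.0 CPM in the 11 mM libraries with GFP. The ChREBPβ libraries gave 48.4, 49.3 and 51.5 CPM at 2 mM and 58.5, 55.3 and 59.1 CPM at 11 mM. Virus and control were apart at 2 mM and overlapped at 11 mM. Slc25a20 fell with ChREBPβ at 2 mM (-0.40 ± 0.0497, edgeR adjusted p = 8.71e-07). Its value at 11 mM was -0.024 ± 0.0484. The difference between these effects was 0.38 ± 0.0694 (edgeR adjusted p = 0.00162). Cpt2, at the inner membrane, rose at 2 mM from a mean of 65.5 to 83.5 CPM (0.35 ± 0.0476, edgeR adjusted p = 3.21e-06), a call that was lost with library totals (0.25). At 11 mM the change of Cpt2 was 0.18 ± 0.0463, and the difference of effects was not called (-0.17 ± 0.0664, edgeR adjusted p = 0.132). Mlycd, which removes malonyl-CoA, fell at 11 mM from 16.4 to 13.0 CPM (-0.34 ± 0.0722, edgeR adjusted p = 0.000589). Its change at 2 mM was -0.24 ± 0.0746, called lower with library totals (-0.343) and without GFP 2 mM b (-0.276) or ChREBPβ 2 mM c (-0.304), and the difference of effects was -0.098 ± 0.104 and not called. Crat, a carnitine acyltransferase for short chains, ran from 68.6 to 75.4 CPM over the 12 libraries and was not called in any comparison.

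The mitochondrial acyl-CoA dehydrogenases open each round according to chain length. For ChREBPβ over GFP, edgeR called 0 of the 4 at 2 mM and 0 at 11 mM, as did DESeq2, where 21.0% of all genes were higher and 23.2% lower at 2 mM, and 14.3% and 19.1% at 11 mM. At an unadjusted p under 0.05, 2 had lower values at 2 mM and 1 had a higher value at 11 mM. The shares above are of calls, and no share of all genes was counted at the unadjusted p. Acadvl, for very long chains, ran from 82.3 to 90.6 CPM, Acadm, for medium chains, from 39.3 to 49.6 CPM, and Acads, for short chains, from 53.1 to 63.0 CPM over the 12 libraries. Acadl, for long chains, stood at 41.0, 44.5 and 42.2 CPM in the 2 mM and 44.7, 42.4 and 44.4 CPM in the 11 mM libraries with GFP. Under ChREBPβ the values were 38.8, 38.2 and 37.3 CPM at 2 mM and 48.8, 44.2 and 48.8 CPM at 11 mM. The ChREBPβ libraries at 2 mM were the lowest of the 12, and those at 11 mM overlapped the GFP libraries through library b. The virus effects on Acadl, -0.16 ± 0.0531 at 2 mM and 0.11 ± 0.0509 at 11 mM, were below 1.2-fold and not called. Glucose raised Acadl in ChREBPβ cells (0.31 ± 0.0513, edgeR adjusted p = 0.00064). The difference of the virus effects was 0.27 ± 0.0736 (edgeR adjusted p = 0.0263), and it lost its call on leaving out any 1 of 7 libraries (GFP 2 mM b, GFP 11 mM b or c, ChREBPβ 2 mM b or c, ChREBPβ 11 mM a or c), with leave-one-out values of 0.237 to 0.317.

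The trifunctional protein carries out the later steps on long chains, with Hadha as its α subunit and Hadhb as its β subunit, the thiolase. Hadhb stood at 170.1, 171 and 172 CPM in the 2 mM and 194, 194 and 204 CPM in the 11 mM libraries with GFP. With ChREBPβ it stood at 267, 279.7 and 271 CPM at 2 mM and 293, 287 and 293 CPM at 11 mM. All ChREBPβ libraries were above all GFP libraries, and within each virus the libraries at 11 mM were above those at 2 mM. At 2 mM Hadhb changed by 0.67 ± 0.0376 (edgeR adjusted p = 7.36e-12), against 0.56 ± 0.0371 (edgeR adjusted p = 1.63e-10) at 11 mM. Hadha, its divergent neighbour, rose less: the means were 324 and 394 CPM at 2 mM (0.28 ± 0.0372, edgeR adjusted p = 2.19e-06), a call that was lost with library totals (0.181). At 11 mM the means of Hadha were 348 and 405 CPM, and its change of 0.22 ± 0.037 (edgeR adjusted p = 7e-05) was below 1.2-fold.

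Hadh, the dehydrogenase for medium and short chains, moved the other way. In β-cells Hadh is known for restraining glutamate dehydrogenase, and its loss causes hyperinsulinism. Hadh stood at 525, 552 and 524 CPM in the 2 mM and 531, 502 and 525 CPM in the 11 mM libraries with GFP. The ChREBPβ libraries gave 338, 344 and 343 CPM at 2 mM and 324, 347 and 359 CPM at 11 mM. All 6 ChREBPβ libraries were far below the 6 GFP libraries, and the glucose levels overlapped within each virus. At 2 mM Hadh changed by -0.64 ± 0.0422 (edgeR adjusted p = 9.23e-11), against -0.60 ± 0.042 (edgeR adjusted p = 3.95e-10) at 11 mM, and the difference between the effects was 0.047 ± 0.0593 and was not called. Acaa2, the thiolase that splits medium chains, stood at 48.0, 53.4 and 52.5 CPM in the 2 mM and 59.9, 56.4 and 60.1 CPM in the 11 mM libraries with GFP. Under ChREBPβ the values were 49.2, 51.0 and 51.0 CPM at 2 mM and 70.2, 75.6 and 75.7 CPM at 11 mM. The viruses overlapped at 2 mM, whereas at 11 mM the ChREBPβ libraries were the highest of the 12. Acaa2 rose at 11 mM (0.33 ± 0.0498, edgeR adjusted p = 1.74e-05), which was lost with library totals (0.244), and at 2 mM the change was -0.025 ± 0.0519. The difference between the effects was 0.35 ± 0.0719 (edgeR adjusted p = 0.00401).

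Oxidation of unsaturated chains needs the isomerases Eci1 and Eci2 and the reductase Decr1. All 3 were called lower with ChREBPβ at 2 mM, where 23.2% of all genes were. Eci1 stood at 18.96, 18.9 and 24.7 CPM in the 2 mM and 13.7, 12.1 and 13.0 CPM in the 11 mM libraries with GFP. With ChREBPβ it stood at 8.49, 8.55 and 9.38 CPM at 2 mM and 7.16, 6.56 and 7.04 CPM at 11 mM. The 4 groups formed steps with no overlap, and GFP 2 mM c stood above its fellows. At 2 mM Eci1 changed by -1.24 ± 0.098 (edgeR adjusted p = 1.58e-09), against -0.90 ± 0.0987 (edgeR adjusted p = 2.49e-07) at 11 mM. Glucose lowered it in GFP cells (-0.69 ± 0.0948, edgeR adjusted p = 1.27e-05) and in ChREBPβ cells (-0.35 ± 0.102, edgeR adjusted p = 0.0396). The call in ChREBPβ cells was lost without GFP 11 mM c or any 1 of the 6 ChREBPβ libraries (leave-one-out values -0.378 to -0.301).

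Eci2 stood at 21.9, 24.7 and 26.1 CPM in the 2 mM and 25.5, 24.2 and 25.7 CPM in the 11 mM libraries with GFP. The ChREBPβ libraries gave 18.8, 19.4 and 20.3 CPM at 2 mM and 25.4, 26.6 and 25.2 CPM at 11 mM. The ChREBPβ libraries at 2 mM were the lowest of the 12, and the other 3 groups overlapped. Eci2 fell at 2 mM (-0.31 ± 0.0659, edgeR adjusted p = 0.000428), a call that was lost without GFP 2 mM c (-0.255), and at 11 mM the value was 0.034 ± 0.0621. The difference was 0.35 ± 0.0906 (edgeR adjusted p = 0.0223), and it lost its call without GFP 2 mM c, ChREBPβ 2 mM a or b, or ChREBPβ 11 mM b (leave-one-out values 0.289 to 0.41). Decr1 averaged 29.9 CPM with GFP against 21.4 CPM with ChREBPβ at 2 mM (-0.49 ± 0.0659, edgeR adjusted p = 2.75e-06), and 26.0 against 21.7 CPM at 11 mM (-0.26 ± 0.0638, edgeR adjusted p = 0.00192). The call of Decr1 at 11 mM lay at the 1.2-fold limit and was lost in 9 of 19 alternatives, among them DESeq2, the replicate block and 5 left-out libraries (GFP 11 mM a or c, ChREBPβ 2 mM a, ChREBPβ 11 mM b or c, with leave-one-out values of -0.292 to -0.236).

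The electron transfer flavoprotein takes electrons from the acyl-CoA dehydrogenases, and Etfdh passes them to ubiquinone. Its subunit genes, Etfa and Etfb, were called lower with ChREBPβ at 2 mM, and Etfb also at 11 mM. Of all genes, 23.2% were lower at 2 mM and 19.1% at 11 mM. Etfa averaged 65.1 CPM with GFP against 54.0 CPM with ChREBPβ at 2 mM (-0.27 ± 0.0634, edgeR adjusted p = 0.0011). This was lost without GFP 2 mM a or b or ChREBPβ 2 mM b (leave-one-out values -0.329 to -0.223). At 11 mM the change was -0.19 ± 0.0621, called lower with library totals (-0.276) and with no minimum fold change. For Etfa the difference of effects was 0.079 ± 0.0887 and not called. Etfb averaged 36.9 CPM with GFP against 30.6 CPM with ChREBPβ at 2 mM (-0.27 ± 0.0618, edgeR adjusted p = 0.00096), and 37.9 against 30.5 CPM at 11 mM (-0.31 ± 0.0597, edgeR adjusted p = 0.000204). The call of Etfb at 2 mM was lost with DESeq2, with RLE factors and without GFP 2 mM b or ChREBPβ 2 mM a or b (leave-one-out values -0.3 to -0.235). At 11 mM it was lost without GFP 11 mM c (-0.253). Etfdh stood at 59.8, 62.1 and 55.6 CPM in the 2 mM and 57.0, 61.3 and 59.7 CPM in the 11 mM libraries with GFP. Under ChREBPβ the values were 57.1, 56.6 and 57.2 CPM at 2 mM and 69.4, 69.6 and 72.5 CPM at 11 mM. The ChREBPβ libraries at 11 mM were the highest of the 12, and the other 9 libraries overlapped. The virus effects on Etfdh, -0.056 ± 0.0489 at 2 mM and 0.25 ± 0.0474 (edgeR adjusted p = 0.000204) at 11 mM, were below 1.2-fold in edgeR. At 11 mM Etfdh was called higher by DESeq2 and with RLE factors (0.269 in each) and without GFP 11 mM b (0.273). Etfdh rose with glucose in ChREBPβ cells (0.31 ± 0.0475, edgeR adjusted p = 0.000378), its change in GFP cells was 0.0025 ± 0.0488, and the difference was 0.31 ± 0.0681 (edgeR adjusted p = 0.0077).

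**Figure D3:**
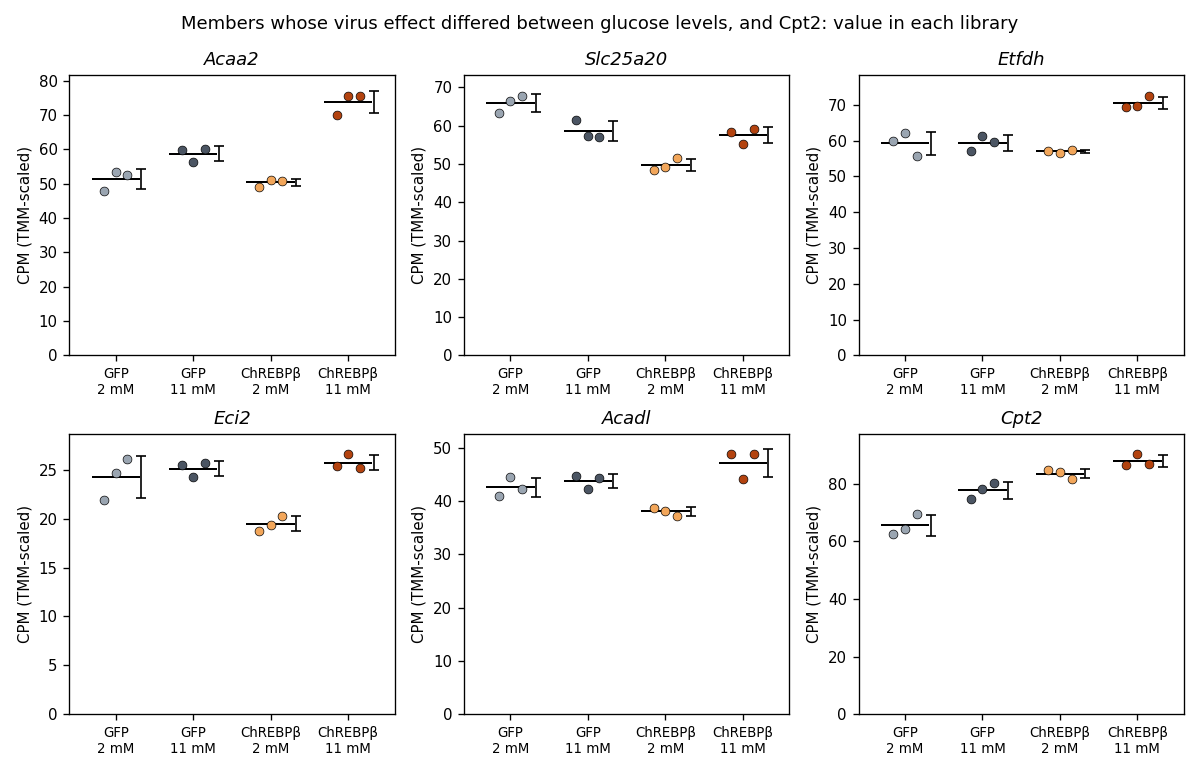
Level (y axis, TMM-scaled CPM from 0) of 6 genes in each of the 12 libraries by group (x axis), with the mean as a line and the standard deviation of 3 libraries as a bar. Acaa2 (mean 73.8 CPM) and Etfdh (mean 70.5 CPM) are highest with ChREBPβ at 11 mM, and Slc25a20, Eci2 and Acadl are lowest with ChREBPβ at 2 mM, whereas Cpt2 is lowest with GFP at 2 mM.

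In peroxisomes, Hsd17b4 is the D-bifunctional protein and Ehhadh the L-bifunctional protein. Hsd17b4 averaged 95.2 CPM with GFP against 77.4 CPM with ChREBPβ at 2 mM (-0.30 ± 0.046, edgeR adjusted p = 1.28e-05), and 89.3 against 74.2 CPM at 11 mM (-0.27 ± 0.0453, edgeR adjusted p = 5.75e-05). The call at 11 mM was lost with DESeq2, with RLE factors and without GFP 11 mM a or ChREBPβ 11 mM a (leave-one-out values -0.302 to -0.242). Ehhadh, a classical PPARα target in liver, ran from 0.0537 to 0.379 CPM and was not called in any comparison. Pex3 and Pex19 insert membrane proteins into peroxisomes, and Pex11a helps them divide. Pex3 was higher at 11 mM than at 2 mM in GFP cells, with means of 33.6 and 45.3 CPM (0.43 ± 0.0461, edgeR adjusted p = 7.01e-07). In ChREBPβ cells its means were 38.7 and 46.6 CPM (0.27 ± 0.0442, edgeR adjusted p = 0.000632), a call that was lost with library totals and without ChREBPβ 2 mM b or ChREBPβ 11 mM a (leave-one-out values 0.257 to 0.292). Pex19 rose with ChREBPβ at 2 mM (0.30 ± 0.118, edgeR adjusted p = 0.0354), although its groups overlapped. This was lost with library totals and without GFP 2 mM a or c or ChREBPβ 2 mM b or c (leave-one-out values 0.212 to 0.422). At 11 mM its value was 0.15 ± 0.109, called higher without GFP 11 mM b alone (0.288), and the difference of effects was -0.15 ± 0.161 and not called. Pex11a ran from 7.14 to 9.24 CPM and was not called.

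Of the PPAR targets outside the oxidation spiral, Ucp2, an uncoupling protein that limits insulin secretion, ran from 820.0 to 1030.0 CPM and was not called in any comparison. Pdk4, a kinase that shuts pyruvate dehydrogenase and a strong PPAR target in muscle and liver, had 0 counts in all 12 libraries, which allows up to 0.0324 CPM with GFP at 2 mM and 0.0176 CPM with ChREBPβ at 11 mM (3 counts over a group, counting error alone). That limit assumes that reads of a gene reach its row, which was not tested, and Echs1, a core enzyme of mitochondrial oxidation, had no more than 5 counts in any group. Angptl4, a secreted inhibitor of lipoprotein lipase, had 0 counts in each of the 6 GFP libraries. It had 1, 3 and 0 counts with ChREBPβ at 2 mM and 29, 11 and 16 counts with ChREBPβ at 11 mM (0.329 CPM over the last group). The pooled level with ChREBPβ at 11 mM was 14.2-fold above a floor of 3 counts over the GFP group at 11 mM. This ratio is not a lower bound, since it leaves out the spread between the ChREBPβ libraries. Angptl4 did not pass the filter. The fit without a filter took genes with any count, which Angptl4 had with ChREBPβ alone. In that fit it was called higher with ChREBPβ at 11 mM (edgeR adjusted p = 2.64e-06) and not called at 2 mM (edgeR adjusted p = 0.189). With 0 counts in all GFP libraries, that fit cannot tell whether these effects differ. The rise with glucose in ChREBPβ cells was called in it (edgeR adjusted p = 0.00352). Acot2, a mitochondrial thioesterase, stood at means of 4.89 and 6.23 CPM at 11 mM (0.35 ± 0.121, edgeR adjusted p = 0.0215). That call was lost with library totals and without GFP 11 mM a or ChREBPβ 11 mM a or b (leave-one-out values 0.27 to 0.41). At 2 mM the change of Acot2 was -0.038 ± 0.13, and the difference of effects was 0.39 ± 0.178 and not called. Its paralog Acot1 had 1, 2, 9 and 4 counts in the 4 groups, and how reads were shared between the paralogs was not tested.

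In control cells, between 2 and 11 mM, 1 of the 29 was called higher (Pex3) and 2 lower (Ppard and Eci1), against 10.2% and 10.0% of all genes. With no minimum fold change 6 were higher and 6 lower, against 2669 and 2361 of the 14669 genes. Their median was -0.04, and that of all genes -0.0024. The median of the 29 was -0.0228 without GFP 2 mM a, -0.0218 without GFP 2 mM b and -0.0194 without GFP 11 mM b (leave-one-out values -0.0552 to -0.0194). Without GFP 2 mM b or c or GFP 11 mM a or c, 2 of the 29 were called higher, and 1 was lower without GFP 2 mM c or GFP 11 mM a. Leaving out 1 library at a time gave 1383 to 1539 of all genes higher and 1256 to 1464 lower. With ChREBPβ, 6 of the 29 (20.7%) were called higher and 2 (6.90%) lower, where 0.988% and 2.88% of all genes were. The 6 were Cpt1a, Acaa2, Eci2, Acadl, Etfdh and Pex3, and the 2 were Eci1 and Ppargc1a. Of these 2, 0 were called without ChREBPβ 2 mM a or c or ChREBPβ 11 mM b or c, and 1 without GFP 11 mM c, ChREBPβ 2 mM b or ChREBPβ 11 mM a. Over all genes 145 were called higher and 422 lower, and without ChREBPβ 2 mM c these counts were 93 and 299. The medians in ChREBPβ cells were 0.028 for the oxidation genes and 0.003 for all, and with library totals 0.0116 and -0.0136. The glucose effect in ChREBPβ cells was 0.55 ± 0.0502 for Acaa2 (edgeR adjusted p = 1.12e-06) and 0.40 ± 0.0632 for Eci2 (edgeR adjusted p = 0.000498). In GFP cells the value was 0.20 ± 0.0516 for Acaa2 and 0.05 ± 0.0649 for Eci2, with neither called. The plot of glucose effects by role shows both genes to the right in red, with their GFP points nearer to 0.

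**Figure D4:**
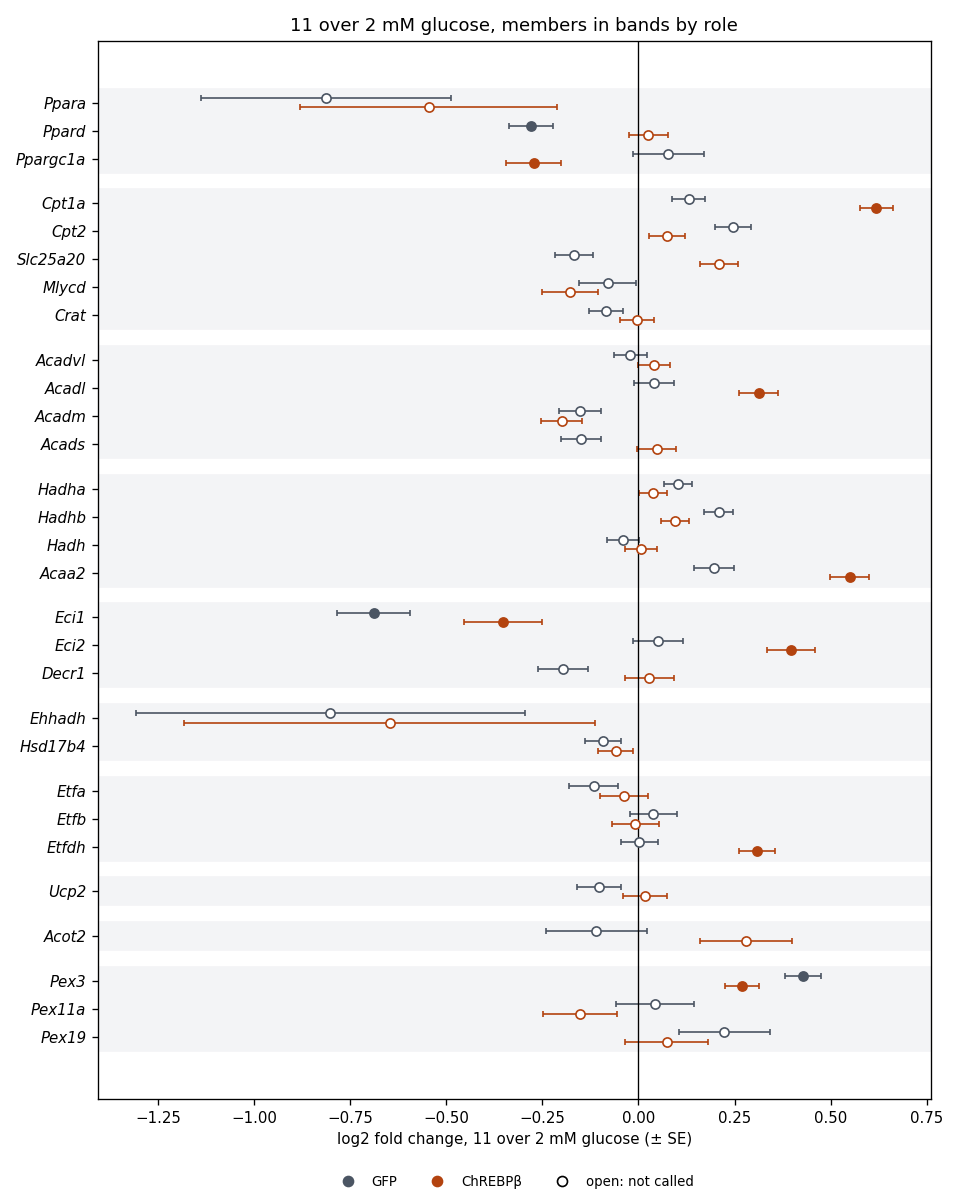
Log2 fold change of 11 over 2 mM glucose (x axis, ± SE) for the 29 tested genes (y axis, in bands by role) with GFP (grey) and ChREBPβ (red), with filled points for called genes. Cpt1a (0.62) and Acaa2 (0.55) with ChREBPβ lie furthest to the right among called genes.

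The difference of the ChREBPβ effect between 11 and 2 mM was called higher in 7 of the 29 genes (24.1%), where 1.56% of all genes were higher and 4.74% lower. The 7 were Cpt1a, Slc25a20, Acaa2, Eci2, Ppard, Etfdh and Acadl, and 4 were called without ChREBPβ 2 mM b. Over all genes 229 were called higher, and the count was 130 without GFP 11 mM c, 137 without ChREBPβ 2 mM b and 140 without ChREBPβ 2 mM c. A positive difference means that ChREBPβ over GFP was higher at 11 than at 2 mM. The genes came to it in different ways. For Cpt1a the effect changed sign between -0.22 and 0.27, for Slc25a20 and Eci2 a called decrease at 2 mM was near 0 at 11 mM, for Acaa2 a value near 0 at 2 mM was a called increase at 11 mM, and for Ppard an increase was larger. For Acadl and Etfdh edgeR called the effect at neither glucose level, whereas DESeq2 called that of Etfdh higher at 11 mM. The difference of Ppard was 0.31 ± 0.0762 (edgeR adjusted p = 0.0161), and its call was lost without ChREBPβ 2 mM b (leave-one-out values 0.265 to 0.343). The difference was called lower in 0 of the 29 by edgeR and in 0 by DESeq2. At an unadjusted p under 0.05, for which all genes were not counted, 4 were lower, Ppargc1a among them (-0.35 ± 0.117, edgeR adjusted p = 0.0736). Without GFP 2 mM a, Ppargc1a was called lower. The median difference was 0.08 for the 29 genes and -0.0064 for all genes. All 4 groups enter this contrast, so it shares its libraries with every other comparison, and the 29 genes were chosen with earlier results of these data known.

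Beside these genes stand lists of related genes, not all of them of fatty acid oxidation. Their counts stand beside those of all genes tested, of which 21.0% were higher and 23.2% lower with the ChREBPβ virus at 2 mM, against 14.3% and 19.1% at 11 mM. Of 12 tested receptor partners and coregulators, 3 were higher and 2 lower at 2 mM (25% and 16.7%), and 4 higher and 2 lower at 11 mM (33.3% and 16.7%). DESeq2 called 1 lower at each glucose level, which was Rxra. Lpin1, a coactivator of PPARα with Ppargc1a, rose by 0.89 at 2 mM and 0.78 at 11 mM, and the receptor Esrra by 0.66 and 0.55. Ppargc1b, the close relative of Ppargc1a, rose by 0.81 and 0.39, whereas Rxra, a partner with which PPAR receptors bind DNA, fell (-0.49 and -0.28). Of 14 genes of fatty acid uptake and activation, 5 were higher and 4 lower at 2 mM (35.7% and 28.6%), and 5 higher and 3 lower at 11 mM (35.7% and 21.4%). The binding proteins Fabp5 (2.42 and 1.73) and Fabp3 (1.505 and 1.53) and the transporter Slc27a4 (0.71 and 0.61) rose, and the synthetase Acsl6 fell (-0.80 and -0.79).

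Of 17 other mitochondrial oxidation enzymes, 2 were higher and 9 lower at 2 mM (11.8% and 52.9%), and 2 higher and 8 lower at 11 mM (11.8% and 47.1%). Not all enzymes of this list act in fatty acid oxidation. Echs1, the hydratase of this list, had 2, 3, 5 and 5 counts in the 4 groups and was not tested. Lower ones were Acadsb (-0.91 at 2 mM and -0.52 at 11 mM), Ivd (-0.79 and -0.62), Pcca (-0.71 and -0.65) and Etfrf1 (-0.70 and -0.60), a regulator of the flavoprotein. Of 26 other peroxisome genes, 9 were lower at 2 mM (34.6%) and 6 at 11 mM (23.1%), among them the carnitine transferase Crot (-0.93 and -0.58), the hydroxylase Phyh (-0.61 and -0.32), the import factor Pex26 (-0.50 and -0.32) and the lyase Hacl1 (-0.46 and -0.30). edgeR called 0 of the 26 higher at 2 mM and 0 at 11 mM, and DESeq2 called 0 and 0 higher (and 9 and 5 lower). At an unadjusted p under 0.05, for which all genes were not counted, 0 were higher at 2 mM and 1 at 11 mM. Of 10 other PPARα targets that were tested, 3 were higher and 4 lower at 2 mM (30% and 40%) and 3 higher and 3 lower at 11 mM (30% and 30%), of which DESeq2 kept 2 lower at 11 mM. The kinase Pdk2 (0.97 and 1.42) and the lipid droplet protein Plin2 (0.84 and 0.86) rose, and the hydroxylase Cyp4a8 (-1.67 and -1.61) and Cidec (-0.60 and -0.44) fell. A further 6 targets, Cyp4a1, Cyp4a2, Vnn1, Creb3l3, Fabp1 and Ucp3, had too few counts for a test, and Vnn1 and Fabp1 had 0 counts in all 12 libraries.

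Of 13 genes of malonyl-CoA synthesis and the pyruvate dehydrogenase switch, 7 were higher and 2 lower at 2 mM (53.8% and 15.4%), and 5 higher and 2 lower at 11 mM (38.5% and 15.4%). Acaca, which makes the malonyl-CoA that blocks Cpt1a, rose by 2.34 at 2 mM (edgeR adjusted p = 1.15e-16) against 1.75 at 11 mM. The pyruvate dehydrogenase subunit Pdhb rose by 1.57 and 1.06, and Prkab2, a subunit of the AMP-activated kinase, fell (-0.48 and -0.59). Of 11 genes of lipolysis and ketone bodies, 6 were higher and 1 lower at each glucose level (54.5% and 9.09%). G0s2, an inhibitor of the lipase ATGL, rose by 4.39 at 2 mM (edgeR adjusted p = 1.18e-18) against 2.69 at 11 mM. The monoglyceride lipase Mgll rose by 2.77 and 1.72, and the ketone body enzyme Bdh1 by 0.40 and 0.38. All lists were chosen with earlier results of these data known, and whether any of them differs from the rest of the genes was not tested. The plot of called genes by list sets their shares beside those of all genes tested.

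**Figure D5:**
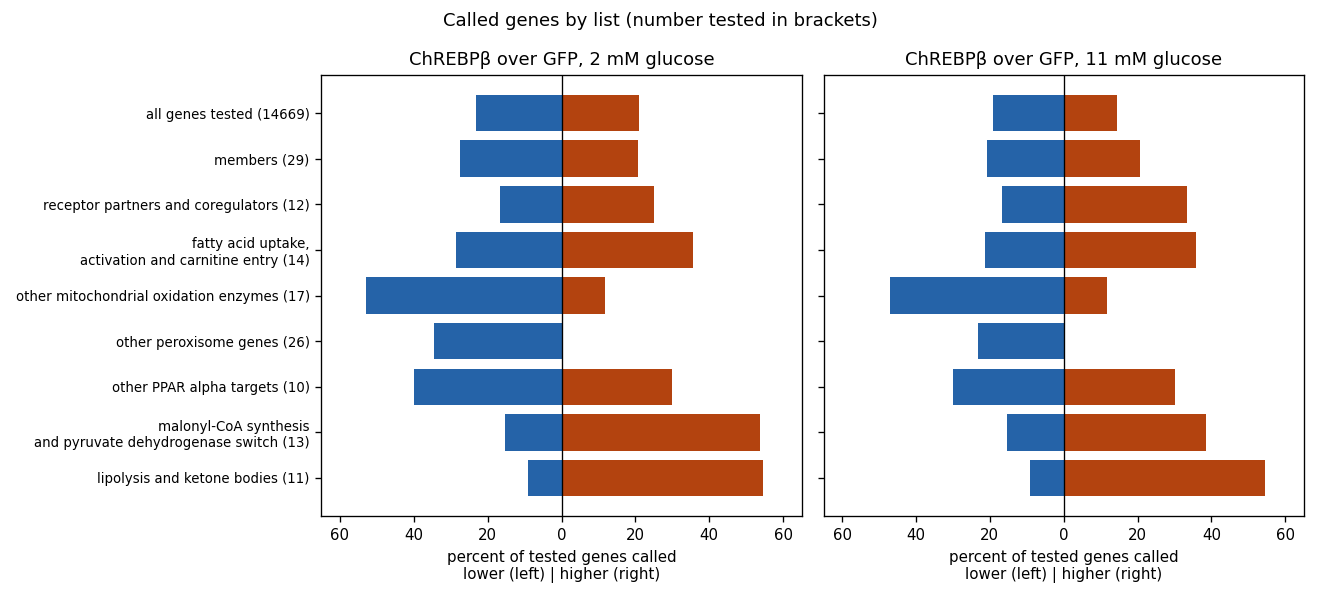
Percent of tested genes (x axis) called lower (left, blue) and higher (right, red) with ChREBPβ over GFP at 2 mM (left panel) and 11 mM glucose (right panel), by list (y axis, number tested in brackets). The 29 oxidation genes (20.7% higher and 27.6% lower at 2 mM) lie near all genes tested (21.0% and 23.2%).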

How the data were processed

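RNA from 12 libraries of INS-1 cells was submitted to Genewiz for amplification (NuGEN Ovation) and sequenced in paired-end reads. The authors deposited raw read counts per gene without normalization. The submitters' processing notes name the build Rnor_6.0 and edgeR, and the sources used here name no aligner or counter. A further 4 deposited columns hold other values, the authors' means of the raw counts of each group, which match averages of the count columns in 28728 rows within a relative tolerance of 1e-06 and served for this check alone. A row without a gene name was left out (0.0043% to 0.00601% of counts).

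Library totals ran from 25754488 to 60531215 counts and TMM factors from 0.958 to 1.06, and between pairs of replicates the chi-square per degree of freedom was 3.09 to 17.4, so that counting error alone understates the spread. Tests were run in edgeR 4.0.16 (with limma 3.58.1) and DESeq2 1.42.0 under R 4.3.3, and plots were drawn with matplotlib 3.10.9 under Python 3.11.15. Genes were filtered with filterByExpr by group, which kept 14669. All 12 libraries entered a quasi-likelihood fit with 4 group means, in which 4 contrasts and the interaction of virus and glucose were tested, with Benjamini-Hochberg adjustment over all genes within each. SE is the size of a log2 fold change divided by the square root of F. A call needs an adjusted p under 0.05 and at least 1.2-fold. The test of ChREBPβ over GFP at 2 mM was tried on simulated data, and those of the other contrasts and the interaction were not.

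Named genes are all 33 on the list, the checks Mlxipl, Txnip and Pklr, and in each further list at most 4 called in the same direction at both glucose levels, with the largest mean change and at least 1 CPM. The most abundant cell markers, some at 0 counts and some that were called, and Echs1 and 6 other PPARα targets with too few counts for a test, are named too. Values in every library are given for genes called with a log2 fold change of at least 0.58. Those of Ppara, Acaa2, Slc25a20, Etfdh, Eci2 and Acadl and the counts of Angptl4 were added after their values were seen. The genes and lists were chosen with earlier results of these data known. After a first run 3 genes, not chosen by their values, were taken out of the further lists and are not reported here, so the counts of those lists are of the genes that remain. Alternatives were DESeq2, RLE factors, library totals, no filter, no minimum fold change, the compared groups alone, a replicate block and leaving out each library. Promoter sequences come from RefSeq (GRCr8).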

Additional observations from a re-analysis of the deposited data

Results flagged for a closer look

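For 7 of the 29 genes tested, ChREBPβ acted differently at 11 mM than at 2 mM glucose, by a test of the difference itself over 12 libraries. These are 24.1% of the 29, where 1.56% of all 14669 genes were called higher and 4.74% lower. Without ChREBPβ 2 mM b, 4 of the 29 were called. Over all genes 137 were then higher and 557 lower, against 229 and 696 with all libraries. With all 12 libraries, the difference of log2 fold changes was 0.488 for Cpt1a (edgeR adjusted p = 2.85e-05), 0.378 for Slc25a20 (edgeR adjusted p = 0.00162) and 0.353 for Acaa2 (edgeR adjusted p = 0.00401). It was 0.346 for Eci2 (edgeR adjusted p = 0.0223), 0.307 for Ppard (edgeR adjusted p = 0.0161), 0.306 for Etfdh (edgeR adjusted p = 0.0077) and 0.272 for Acadl (edgeR adjusted p = 0.0263). Each value is positive, so ChREBPβ over GFP was higher at 11 mM than at 2 mM. The calls of Cpt1a, Slc25a20, Acaa2 and Etfdh were kept in all 18 alternatives run, that of Ppard in 17 of 18, that of Eci2 in 14 of 18 and that of Acadl in 11 of 18.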

How the results depend on the processing

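Of 44 called results of single genes, 25 kept their call under each of the alternatives run, 19 lost it under at least 1, and 0 were reversed. A further 24 results were called under an alternative alone, 14 of them from the lack of a minimum fold change alone.

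With library totals and no TMM factors, 3 of the 29 genes were called higher and 11 lower with ChREBPβ at 2 mM. Of all 14669 genes, 2196 were higher and 4421 lower. At 11 mM 3 of the 29 were higher and 7 lower, against 1532 and 3698 of all. The medians of the 29 were -0.215 and -0.0567, and for glucose -0.0717 with GFP and 0.0116 with ChREBPβ. This scaling moved the share of all calls that were higher from 47.5% to 33.2% at 2 mM and from 42.9% to 29.3% at 11 mM, and the median of all genes by -0.0992 and -0.0837. With no minimum fold change, 6 genes were higher and 6 lower with glucose in GFP cells, against 2669 and 2361 of all 14669.

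Leaving out 1 library at a time gave a median of -0.137 to -0.0789 at 2 mM and 0.00805 to 0.0367 at 11 mM. It gave 1 to 2 genes higher and 1 to 3 lower with glucose in GFP cells, and 0 to 2 lower with glucose in ChREBPβ cells. For the difference it gave 4 to 7 higher, 0 to 1 lower and a median of 0.0591 to 0.115. The causes were not tested.

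With the replicate block, 6 genes were higher and 8 lower with ChREBPβ at 2 mM, against 3076 and 3373 of all genes. At 11 mM 6 were higher and 5 lower, against 2079 and 2782 of all. With glucose 1 was higher and 2 lower in GFP cells (1491 and 1447 of all). In ChREBPβ cells 6 were higher and 2 lower with glucose (135 and 412 of all). For the difference 7 were higher and 0 lower (220 and 692 of all). Without the block, 4 of the 29 had a lower difference at an unadjusted p under 0.05 in edgeR. No share of all genes was counted at that unadjusted p, and DESeq2 called 0 lower. Among the 29, the only call lost with the block was that of Decr1 at 11 mM. Libraries of the same letter shared only a letter: of 12 pairs, 0 had a correlation of deviations over 0.1 (-0.114 to 0.0522). Genes with few counts, such as Ppara and Ehhadh, limit what could be tested.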

Other observations

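Over all 14669 genes tested, 2 were called in opposite directions by ChREBPβ at 2 and 11 mM glucose, and none of the 29 oxidation genes was among them by edgeR, although Cpt1a had values of -0.22 and 0.27. With no minimum fold change, Cpt1a was called lower at 2 mM and higher at 11 mM. Called at 2 mM and not at 11 mM were 6 of the 29 (20.7%, against 15.9% of all genes), and called at 11 mM and not at 2 mM were 4 (13.8%, against 5.17%). Among these genes the difference of effects was called for Slc25a20, Eci2, Cpt1a and Acaa2. It was not called for Cpt2, Hadha, Etfa, Pex19, Mlycd and Acot2.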
